A study of Homo sapiens with 4 samples.

Results

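The terminal 7p22 block is the end of the short arm of chromosome 7, here the first 5 Mb of the chromosome in the hg19 build. It was taken from a list of ATAC-seq peaks, in which each line is a summit (the point of highest signal) and each distinct start and end is a region. Every line on chromosome 7 whose summit lay from 0 to 5000000 was a member, which gave 7466 summits in 2391 regions, out of 371521 summits in 197823 regions in the whole list. The members were chosen by the density of summits measured in this same list. All values of density, width and strength below are therefore descriptions without a test. The intervals beside them cover counting error only, as if the counted summits or regions were independent.

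ATAC-seq uses the Tn5 transposase, which cuts and tags DNA that is not shielded by nucleosomes or other proteins, so that sequenced fragments pile up over open chromatin. The study used T47D-MTVL, a line derived from T47D luminal breast cancer cells with an integrated copy of a luciferase reporter driven by the MMTV promoter. The cells carried either an shRNA against multiple linker histone H1 variants (multiH1sh, knock-down, 2 samples) or a random shRNA (RDsh, control, 2 samples), and the labels do not say whether the 2 samples of a group came from separate cultures. The 4 samples share 1 deposited list. Its name presents it as a differential list of multiH1sh against RDsh, while its track line gives 225sh in place of multiH1sh, a name absent from the labels. That both names mean the knock-down is an assumption. Which samples and replicates were used, and in what way RDsh entered, is not stated, and neither single samples nor control cells have a level of their own in the list. Whether a listed region was open in knock-down cells or more open there than in control cells can therefore not be told apart, and no value below measures a gain over control.

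Linker histone H1 binds the nucleosome where DNA enters and leaves it and helps nucleosomes pack against each other. Mammalian cells carry several H1 variants, and chromatin with less H1 is known to be less compact. Gene-rich, GC-rich bands near chromosome ends are in general known to be early replicating and open, while long genes expressed mainly in nervous tissue tend to lie in compact chromatin in epithelial cells.

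The genes known to lie in 7p22 are of many kinds. In the order of a RefSeq gene table of GRCh38, another build than that of the list, they begin near the chromosome end with FAM20C, a kinase of the secretory pathway, PDGFA, a ligand of the platelet-derived growth factor receptors, PRKAR1B, a regulatory subunit of protein kinase A, and SUN1, a protein of the inner nuclear membrane. Further in come GPER1, a membrane receptor that responds to oestrogen, INTS1, a subunit of the Integrator complex, MAFK, a small Maf transcription factor, and MAD1L1, a spindle checkpoint protein. NUDT1, which removes oxidised nucleotides, EIF3B, a translation initiation factor, LFNG, a glycosyltransferase that modifies Notch, and GNA12, a G protein subunit, follow. SDK1, a large gene for a neuronal cell adhesion protein, comes further in and stands, with 1 LOC entry between, before FOXK1, a forkhead transcription factor. From FAM20C to MMD2 the table holds 46 protein-coding genes, 41 of them with a symbol other than a LOC number. The next span of the table, after MMD2 to MEOX2, holds 53, of which 51 have such a symbol. No lengths are given for these spans, so the counts are not gene densities and cannot be compared as such. Which of these genes lie under which listed regions was not analysed here, because the positions of the table are of another build.

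The strength of a summit is given as its pileup, that is, how many reads overlapped it. The authors' fold enrichment is the pileup over a background, and the fold and p-value together gave 1 common background of 2.01 reads for the list, over which every summit of the block had a whole number of reads. The fold of a summit is thus a multiple of the same level everywhere in the list, and not of a level of RDsh cells at that place. Summits in the block had from 10 to 113 reads, which are folds of 3.66 to 37.9. The list holds no summit under 10 reads anywhere, so a place without a region is not one shown to be closed. Such a place may have had under 10 reads or may have been left out by another step. How RDsh entered the list is not stated, so these cannot be told apart. The sequencing depth of the samples was not given in the labels or the list.

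The block held 1493 summits per Mb (7466 in 5 Mb), against 164 per Mb (1637 summits) in the next 10 Mb of the short arm, from 5 to 15 Mb, a ratio of 9.12 (95% exact Poisson interval 8.65 to 9.63). Counted as regions it held 478 per Mb, against 76.1 per Mb from 5 to 15 Mb. Listed regions covered 28.5% of the sequence of the block, against 3.14% from 5 to 15 Mb and 2.01% of all of chromosome 7 beyond the block. The block made up 3.21% of chromosome 7 without its centromere gap, and held 33.3% of that chromosome's summits (95% Wilson interval 32.6 to 33.9%), 21.4% of its regions (20.7 to 22.2%) and 55.8% of its 217 regions of 2 kb or more (49.1 to 62.2%). Among 619 tiles of 5 Mb on chromosomes 1 to 22 and X it ranked 6 by number of summits.

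The block was not uniform. Its first 3 Mb held 89.8% of its summits (6704 of 7466, 95% Wilson interval 89.1 to 90.5%). The first Mb held 2014 summits, the second Mb 2801 and the Mb after that 1889. These 3 windows ranked 20, 6 and 23 among 3048 windows of 1 Mb in the genome. The fourth Mb held 106 summits in 81 regions, a hollow inside the block, and the fifth held 656. Coverage by listed regions followed the same course, at 39.4%, 52.6%, 35.4%, 2.01% and 12.9% of each Mb.

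The hollow had uneven edges. Before it, the window from 2800001 to 2900000 had only 28 summits. From 2900001 to 3000000 there were 130 summits, from 3000001 to 3100000 there were 48, and from 3100001 to 4100000 no window of 100 kb had more than 18. The window from 3400001 to 3500000 had no summit, and it was the only empty one of the 50 windows of the block. The windows from 3500001 to 3900000 had 3, 2, 1 and 4 summits. The longest stretch without a listed region ran from 3376111 to 3514110 (138 kb). It was followed by 3567987 to 3682689 (115 kb), 3751954 to 3829427 (77.5 kb) and 3882159 to 3951065 (68.9 kb), all in the fourth Mb, and by 4450691 to 4509603 (58.9 kb) in the fifth. Those of the stretch from 5 to 15 Mb were longer, the longest being 8708650 to 9428143 (719 kb) and 12904772 to 13529267 (624 kb).

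Beyond the hollow the summits came back in islands. The first, from 4100001 to 4300000, had 80 and 104 summits in its pair of windows. After it the windows from 4300001 to 4700000 fell back to 31, 10, 12 and 17. The second island was the window from 4800001 to 4900000 with 218 summits and 40.6% of its sequence in regions, between neighbours of 87 and 79. It alone of the 20 windows from 3 to 5 Mb reached the densest 1% of the genome's 30355 windows of 100 kb (198 summits or more).

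The border at 5 Mb is a round number, and the dense part of the arm did not end there. The window inside it, from 4900001 to 5000000, had 79 summits and the one outside, from 5000001 to 5100000, had 31. The sixth Mb had 962 summits, more than the fifth, and the seventh had 513. The border ran through a region, 4999603 to 5000209, with summits of 24 and 11 reads inside and one of 19 reads outside. This region counts in both stretches. The summit before these, at 4999233, had 14 reads, and the next outside, at 5000699 and 5002168, had 12 and 10.

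The size of the contrast with the next 10 Mb therefore depended on which part of it was taken. From 5 to 7 Mb lay 1475 of the 1637 summits of the 5 to 15 Mb stretch (90.1%), mainly in 2 islands. One ran from 5300001 to 5700000, with 192, 227, 206 and 158 summits per 100 kb, and the other from 6500001 to 6700000, with 140 and 155. Past the second island the windows from 6700001 to 7000000 had 34, 20 and 12 summits. From 7 to 15 Mb there were 162 summits in 109 regions over 8 Mb, or 20.3 per Mb, and no Mb had more than 39. The density of the block was 2.02 times that from 5 to 7 Mb (95% exact Poisson interval 1.91 to 2.14) and 73.7 times that from 7 to 15 Mb (63.1 to 86.7). The part of the block from 3 to 5 Mb, with 381 summits per Mb, was less dense than 5 to 7 Mb with 738 per Mb.

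**Figure D1:**
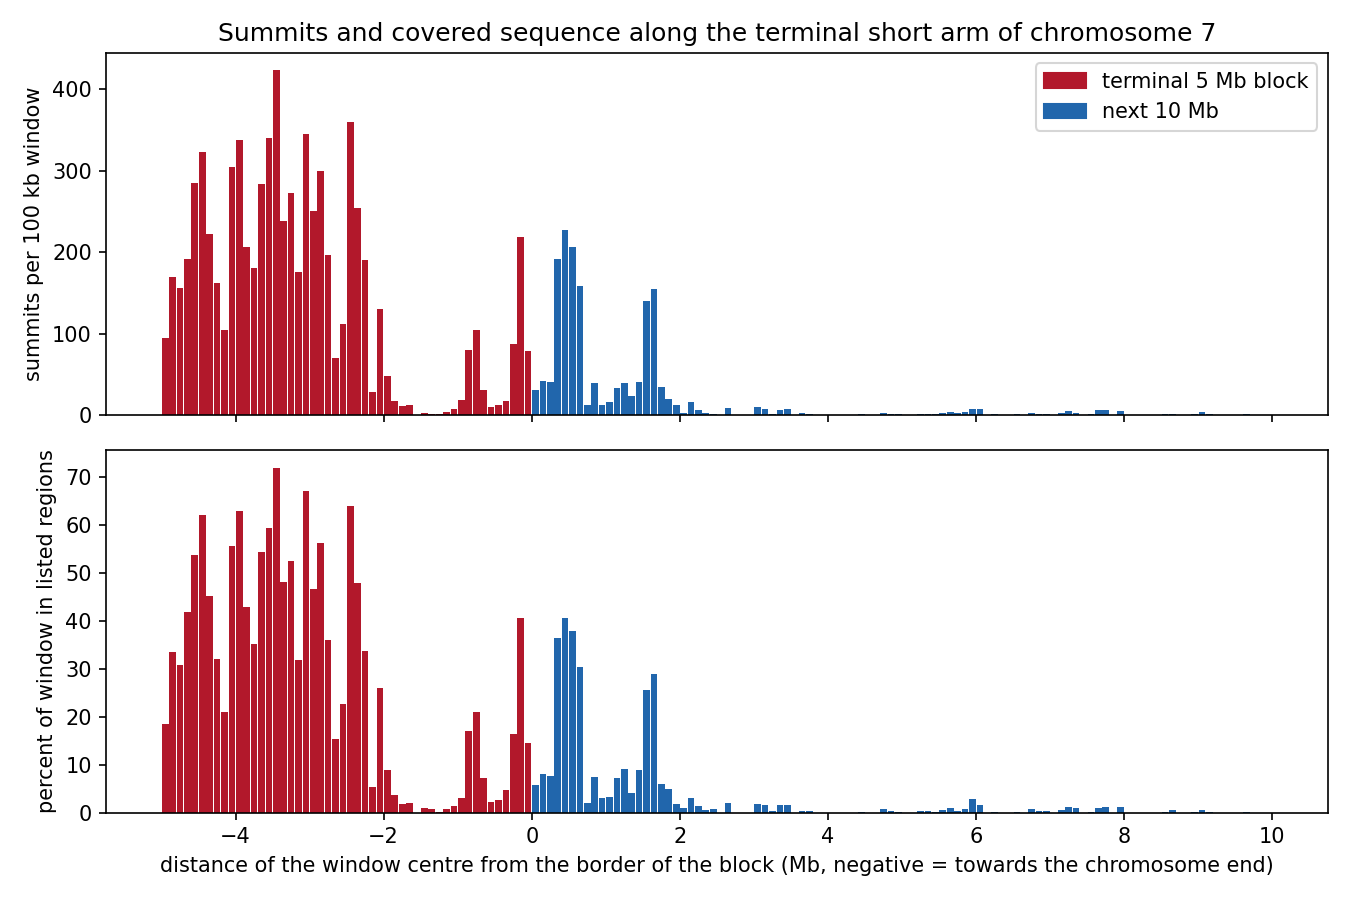
Summits per 100 kb window (upper panel) and percent of each window inside listed regions (lower panel) in the terminal block (red, 50 windows) and the next 10 Mb (blue, 100 windows), against the distance of the window centre from the 5 Mb border. The highest window has 423 summits, the hollow inside the block falls to 0, and islands continue for 2 Mb past the border before the counts stay low.

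Windows of 100 kb in the block had from 0 to 423 summits with a median of 143, against 0 to 227 with a median of 2 from 5 to 15 Mb, where 36 of 100 windows had none. In the block 17 of 50 windows were among the densest 1% of the genome, against 2 of 100 from 5 to 15 Mb. By the wider measure of the densest 10% (29 summits or more) these were 36 of 50, against 14 of 100. Of the 30 windows of the first 3 Mb, 29 were among that 10%. The exception was 2800001 to 2900000 with 28 summits, next to 190 before it and 130 after it.

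The window with the most summits was 1500001 to 1600000, with 423 summits in 52 regions that covered 72.0% of it. Next came 2500001 to 2600000 (360 summits, 64.0% covered), 1900001 to 2000000 (345 summits, 67.0%), 1400001 to 1500000 (340 summits, 59.4%) and 1000001 to 1100000 (337 summits, 62.9%). The 5 together held 24.2% of the summits of the block (95% Wilson interval 23.2 to 25.2%). In 11 windows of the block more than 50% of the sequence lay in listed regions. From 5 to 15 Mb the most covered window was 5400001 to 5500000, at 40.6%.

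Windows with more summits tended to hold stronger summits, with exceptions. In the window from 1500001 to 1600000 the median pileup was 21 reads and 58.4% of summits had 20 reads or more. In the next ones by number of summits, starting at 2500001, 1900001, 1400001 and 1000001, this share was 50.6%, 35.4%, 48.5% and 47.8%. The window from 4800001 to 4900000, with only 218 summits, had 46.8%. Among windows with 20 summits or more the lowest share was 14.6%, from 3000001 to 3100000 (48 summits, median 15 reads). The least dense of them, 2800001 to 2900000 with 28 summits, had 21.4%, and 4300001 to 4400000 with 31 summits had 19.4%. Over the 37 windows of the block with 20 summits or more, the number of summits and the share at 20 reads or more went together, with a Pearson r of 0.90 and a Spearman rho of 0.88. The 13 windows with fewer summits were left out of this, and some of them had high shares on few summits, such as 41.2% of 17 from 4600001 to 4700000 and 66.7% of 3 from 3500001 to 3600000. These windows share 1 list, 1 depth and 1 background, neighbouring windows share regions, and a region with many summits adds to both measures, so the correlation is a description.

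Neighbouring regions lay close together in the block. The median distance from a region to the next was 366.5 bp, against 805.5 bp from 5 to 15 Mb, and 58.9% of these distances were under 500 bp, against 39.5%. When regions within 1 kb of each other were joined, the block fell into 608 stretches with a median width of 1096 bp, and the 5 to 15 Mb stretch into 355 with a median of 407 bp. Joined stretches of 10 kb or more numbered 52 in the block and held 54.3% of its summits, against 7 with 21.9% of the summits from 5 to 15 Mb. Those of 20 kb or more numbered 14 in the block and 0 from 5 to 15 Mb. The longest ran from 1468389 to 1546894 (78.5 kb), with 32 regions and 403 summits of at most 51 reads. The second ran from 2527089 to 2572501 (45.4 kb, 233 summits) and the third from 1877359 to 1915791 (38.4 kb, 174 summits). The longest from 5 to 15 Mb was 6676022 to 6695880, at 19.9 kb with 84 summits.

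Taken as a whole, the block had wider regions with more summits than the next 10 Mb. The median width was 308 bp, with quartiles of 172 and 646 bp, against a median of 230 bp with quartiles of 143 and 491 bp from 5 to 15 Mb, and 208 bp over the whole list. The 99th percentile was 4141 bp, against 2116 bp. Regions of 2 kb or more made up 5.06% (121 of 2391, 95% Wilson interval 4.25 to 6.01%), against 1.45% (11 of 761, 0.809 to 2.57%), and those 121 made up 29.3% of the covered sequence of the block. Regions with 2 or more summits made up 48.3% (1154 regions, 46.3 to 50.3%), against 34.2% (260 regions, 30.9 to 37.6%) and 28.2% of the whole list. Regions with 10 or more summits numbered 150 and held 34.9% of the summits of the block, against 21 regions with 16.4% of the summits from 5 to 15 Mb. The greater width and number of summits lay in the first 3 Mb. There the median width was 335 bp, and 52.3% of regions had 2 or more summits (50.1 to 54.5%). From 3 to 5 Mb the values were 202.5 bp and 28.9% (24.7 to 33.4%). From 5 to 7 Mb they were 242 bp and 37.0% (33.3 to 40.7%).

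The widest region ran from 1476280 to 1488241 (11962 bp) and had 65 summits of 10 to 48 reads with a median of 22. The next 2 by width, 1504970 to 1515132 (10163 bp) and 1515234 to 1525249 (10016 bp), were next to each other, with 59 summits each, medians of 26 and 22 reads and highest values of 48 and 37. All 3 lay in the longest joined stretch. They were followed by 2558175 to 2567564 (9390 bp, 57 summits, highest 56 reads), 1583469 to 1591046 (7578 bp, 52 summits, highest 46 reads) and 1021700 to 1029131 (7432 bp, 48 summits, highest 38 reads). The 5 widest were also the 5 with the most summits. The remaining 4 of the 10 widest were 2546512 to 2553937 (7426 bp), 4837876 to 4844214 (6339 bp), 2577670 to 2583703 (6034 bp) and 4826811 to 4832397 (5587 bp). Both on the far side of the hollow lay in the island from 4800001 to 4900000. The widest from 5 to 15 Mb, 5568995 to 5573020, had 4026 bp and 24 summits of 14 to 43 reads. Wider regions than those of the block lay elsewhere, up to 25702 bp on chromosome 7 beyond it and 65337 bp in the whole list.

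Within a region, the median distance between neighbouring summits was 153 bp in the block (5075 pairs, quartiles 114 and 211 bp), against 149.5 bp from 5 to 15 Mb (876 pairs, quartiles 114 and 206 bp) and 156 bp over the whole list. The most frequent distance was 100 to 125 bp in all 3. How far the peak caller's smoothing sets this spacing was not tested.

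**Figure D2:**
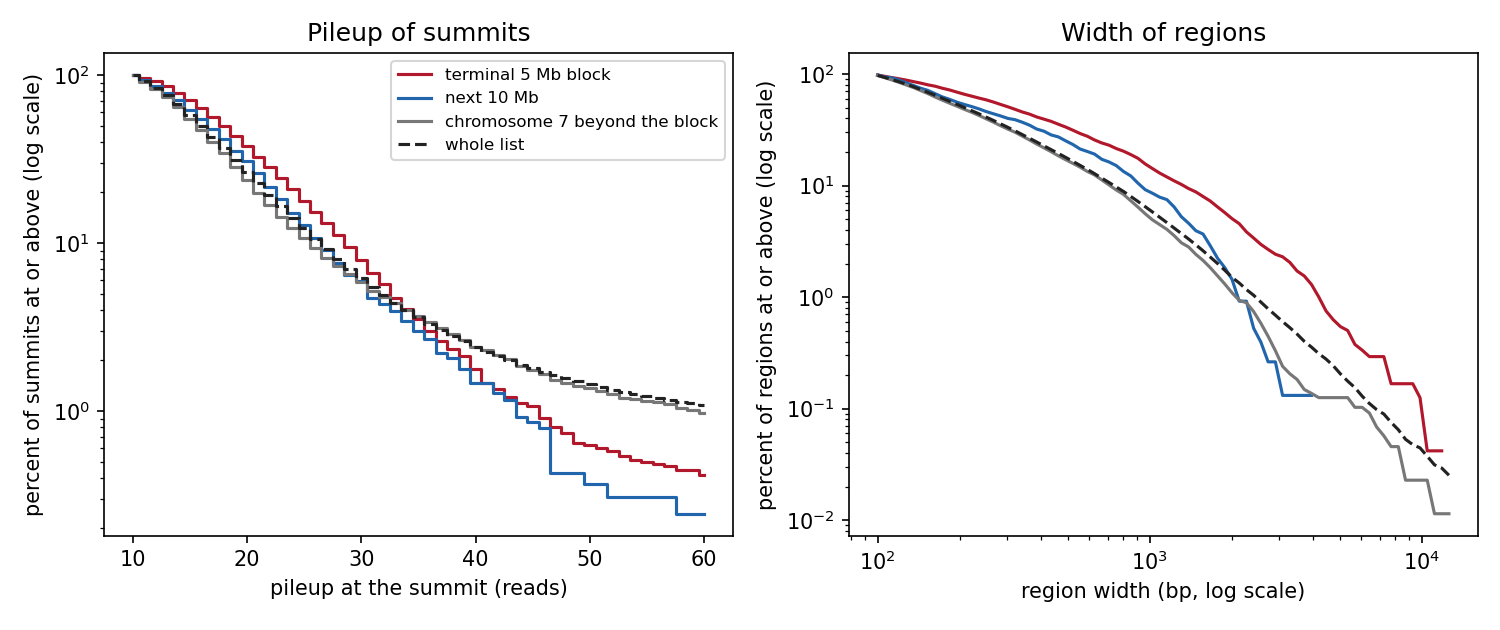
Percent of summits at or above each pileup in reads (left) and percent of regions at or above each width in bp (right), for the terminal block (red), the next 10 Mb (blue), chromosome 7 beyond the block (grey) and the whole list (dashed). The block lies above the other lines at 20 reads (37.8% of summits) and at 2 kb (5.06% of regions). It lies below the whole list at 50 reads. In width it is still above the whole list at 9855 bp (0.125% against 0.0445% of regions). Its line ends near its widest region of 11962 bp, while the whole list has wider ones.

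In pileup the block stood higher than the whole list in the middle of the range and lower at the top. The highest pileup was 113 reads in the block, 24972 on chromosome 7 beyond it and 245280 in the whole list. What such extreme summits are, and how they weigh on the shares at 50 reads or more, was not tested. The median of the block was 17 reads with quartiles of 14 and 22. From 5 to 15 Mb it was 16 reads with quartiles of 13 and 21, and for chromosome 7 beyond the block and the whole list 15 reads. Of the summits, 37.8% had 20 reads or more (2822 of 7466, 95% Wilson interval 36.7 to 38.9%), against 30.5% (500 of 1637, 28.4 to 32.8%) from 5 to 15 Mb, 23.8% (23.1 to 24.5%) of chromosome 7 beyond the block and 26.5% of the whole list. Summits at the floor of the list, with 10 or 11 reads, made up 8.59% (7.97 to 9.24%), against 14.1% (12.5 to 15.9%) from 5 to 15 Mb and 15.9% of the whole list. At 50 reads or more the order was another. They were 0.630% of the block (47 summits, 0.474 to 0.836%) and 0.367% from 5 to 15 Mb (6 summits, 0.168 to 0.797%), against 1.38% (1.20 to 1.57%) of chromosome 7 beyond the block and 1.44% of the whole list. The value from 5 to 15 Mb joined unlike parts. From 5 to 7 Mb it was 0.136% (2 of 1475), and from 7 to 15 Mb, where summits were few, 2.47% (4 of 162, 0.964 to 6.18%). At 30 reads or more the share was 7.90% in the block (7.31 to 8.54%), against 5.02% from 5 to 7 Mb (4.02 to 6.25%) and 14.2% from 7 to 15 Mb (9.65 to 20.4%). The block's higher share at 20 reads or more lay in its first 3 Mb, with 39.0% (37.8 to 40.2%). From 3 to 5 Mb it was 27.2% (24.1 to 30.4%), against 30.4% from 5 to 7 Mb (28.1 to 32.8%). Summits of 10 or 11 reads made up 14.8% from 3 to 5 Mb (12.5 to 17.5%).

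The ratio of the block to the next 10 Mb was larger among stronger summits up to 25 reads. It was 9.12 over all summits, 10.4 at 15 reads or more (95% exact Poisson interval 9.69 to 11.1), 11.3 at 20 or more (10.3 to 12.4) and 12.6 at 25 or more (10.9 to 14.7). Above that it did not go on rising in step. It was 12.2 at 30 or more (9.80 to 15.2, 97 summits from 5 to 15 Mb), 11.1 at 40 or more (7.14 to 17.9, 24 summits) and 15.7 at 50 or more (6.68 to 44.8, 6 summits), with intervals that overlap each other. Against chromosome 7 beyond the block the ratio was 15.04 over all summits, 23.9 at 20 reads or more (22.7 to 25.1) and 25.001 at 25 or more (23.2 to 26.9). It was 6.89 at 50 or more (4.91 to 9.49) and 2.98 at 100 or more (1.245 to 6.16).

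The share at 20 reads or more rose with the number of summits per region. In regions with 1 summit it was 13.3% in the block (165 of 1237, 95% Wilson interval 11.6 to 15.3%), against 8.78% from 5 to 15 Mb (44 of 501, 6.61 to 11.6%) and 8.44% of the whole list. In regions with 2 to 3 summits it was 28.1% in the block (25.9 to 30.5%), against 26.3% (21.9 to 31.2%) from 5 to 15 Mb. With 4 to 9 summits it was 38.4% (36.4 to 40.4%), against 43.4% (39.2 to 47.7%). With 10 or more it was 54.3% (52.4 to 56.2%), against 51.7% (45.7 to 57.6%). The whole list had 23.7% with 2 to 3 summits, 37.3% with 4 to 9 and 57.8% (57.4 to 58.2%) with 10 or more, so that in the last class the block was below it. Between the block and the next 10 Mb the intervals overlapped in all classes. The overlap was narrow with 1 summit, where the block was higher, and with 4 to 9 summits, where it was lower. Neighbouring summits share reads but are counted as separate in these intervals, so their overlap is not a test. The mix of classes differed as well, as 16.6% of the summits of the block stood alone in a region, against 30.6% from 5 to 15 Mb and 38.2% of the whole list. The number of summits per region comes from the same signal as the pileup. Whether the mix accounts for the higher share of the block was not tested.

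**Figure D3:**
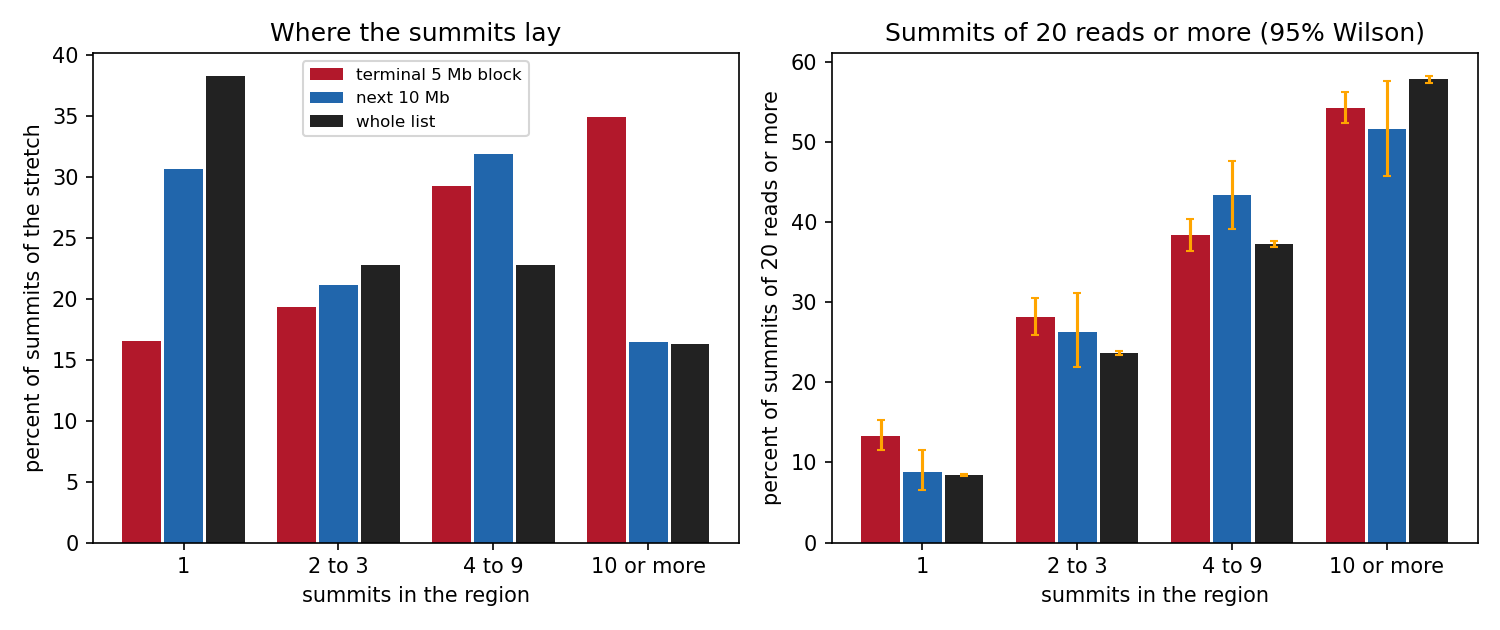
Percent of summits by the number of summits in their region (left) and percent of summits with 20 reads or more in each class (right, bars with 95% Wilson intervals in orange), for the terminal block (red), the next 10 Mb (blue) and the whole list (black). Regions with 10 or more summits hold 34.9% of the block's summits. The intervals of the block and the next 10 Mb overlap in each class, which is not a test.

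The strongest summits of the block were in other regions than its widest ones. The 8 summits of 100 reads or more lay in 4 regions. The highest, at 298007 with 113 reads and a fold of 37.9, belonged to the region from 296396 to 299014, which also held summits of 108 reads at 298224 and 106 reads at 297899. That region had 16 summits with a median of 17 reads, so a sharp peak stood in a low surrounding. The region from 1799545 to 1801150 had 3 summits, of 107, 111 and 100 reads, and none that was low. The region from 1167318 to 1169091 likewise had 3 summits, the highest of 107 reads at 1167842, the next of 91 reads at 1168440 and the lowest of 89 reads. The fourth, from 204459 to 205401, had 103 reads at 205303 and a median of 16 reads over 7 summits. The only one of the 10 summits with the highest q-value outside these 4 regions was at 337016, with 94 reads. Of the stretch from 5 to 15 Mb, 1 summit reached 100 reads, that at 8192415 with 108 reads, in a region of 413 bp from 8192188 to 8192600, in an Mb with 37 summits in all. The next there were at 11013368 with 75 reads and at 12250888 with 61.

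In all, 31 regions of the block had a summit of 50 reads or more, and each of them had 2 or more summits. The first Mb held 15 of them, the second 12, the third 3, the fourth 0 and the fifth 1. Among the 121 regions of 2 kb or more, 14 reached 50 reads (11.6%, 95% Wilson interval 7.02 to 18.5%), against 17.5% (16.2 to 18.9%) of such regions in the whole list. Of the 10 widest regions of the block, 2 did. Among the 764 regions under 200 bp none did, which allows a share of up to 0.393% (3 counts of the total). In the whole list 0.0605% of such regions did (57 of 94193). That share lies under the limit, so finding none does not set the block apart. The median highest pileup was 13 reads in regions under 200 bp, 16 from 200 to under 500 bp, 24 from 500 to under 2000 bp and 37 at 2 kb or more, against 12, 16, 23 and 38 in the same classes from 5 to 15 Mb. A wide region has more summits, so its highest pileup is taken over more values.

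**Figure D4:**
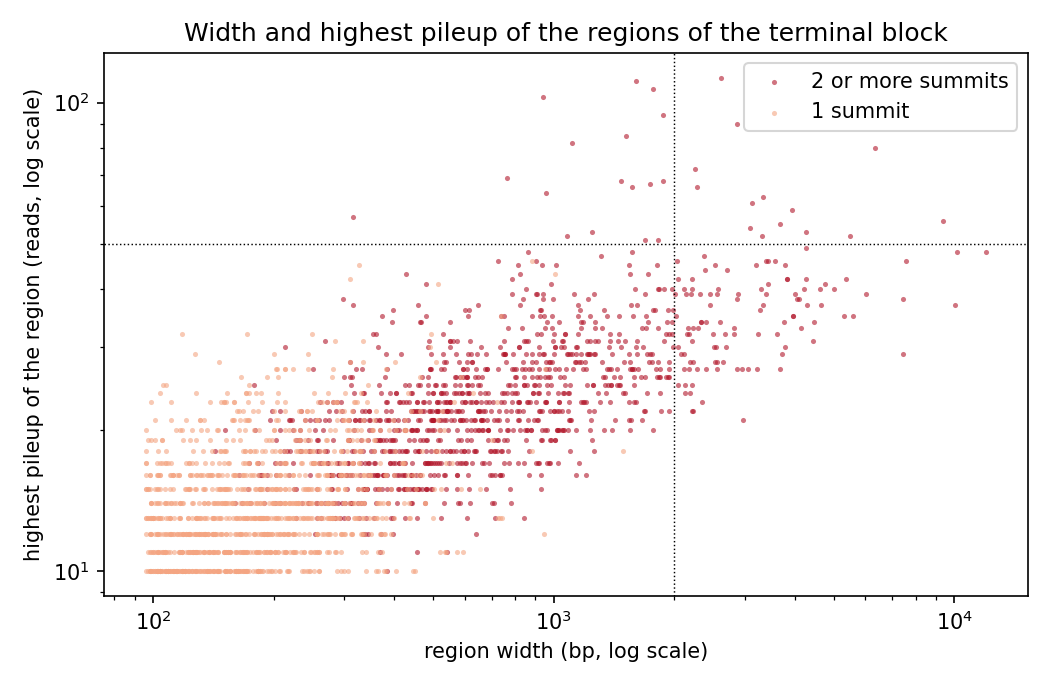
Width in bp against the highest pileup in reads for each of the 2391 regions of the terminal block, both on log scales, with regions of 2 or more summits in dark red and of 1 summit in light red. The dotted lines mark 2 kb and 50 reads. All 31 regions at or above 50 reads have 2 or more summits, and 14 of them are 2 kb or wider.

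Another 3 short-arm ends with many summits were set beside the block. The first 5 Mb of chromosome 16 were the most like it. The block had 1493 summits per Mb, 478 regions per Mb and 28.5% of its sequence covered, against 1549, 497 and 29.3% on chromosome 16. The median region width was 308 bp, against 306 bp, and regions with 2 or more summits made up 48.3%, against 47.5% (95% Wilson interval 45.6 to 49.5%). Summits of 20 reads or more were more frequent in the block, at 37.8% (36.7 to 38.9%), against 33.9% (32.9 to 35.0%). In regions with 10 or more summits this share was 54.3% (52.4 to 56.2%), against 46.6% (44.8 to 48.5%).

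The ends of chromosomes 4 and 5 were less dense than the block, with 1029 and 955 summits per Mb. On chromosome 4, 33.4% of summits (32.2 to 34.7%) had 20 reads or more, below the 37.8% of the block. On chromosome 5 it was 49.7% (48.2 to 51.1%), above the block, and 4.02% had 50 reads or more, against 0.630% in the block. The median region width was 294.5 bp on chromosome 4 and 291 bp on chromosome 5, against 308 bp in the block. Regions of 2 kb or more made up 4.17% and 8.44%, against 5.06%. Regions with 10 or more summits held 28.7% and 47.6% of the summits, against 34.9%. The courses along these ends differed as well. In the block the counts per Mb were 2014, 2801, 1889, 106 and 656, against 2042, 2392, 1669, 724 and 917 on chromosome 16, 999, 1731, 889, 1341 and 185 on chromosome 4, and 2110, 2343, 196, 115 and 13 on chromosome 5. In all 4 ends the second Mb had the most summits of the 5. The number of copies of each chromosome end in these cells was not measured here.

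**Figure D5:**
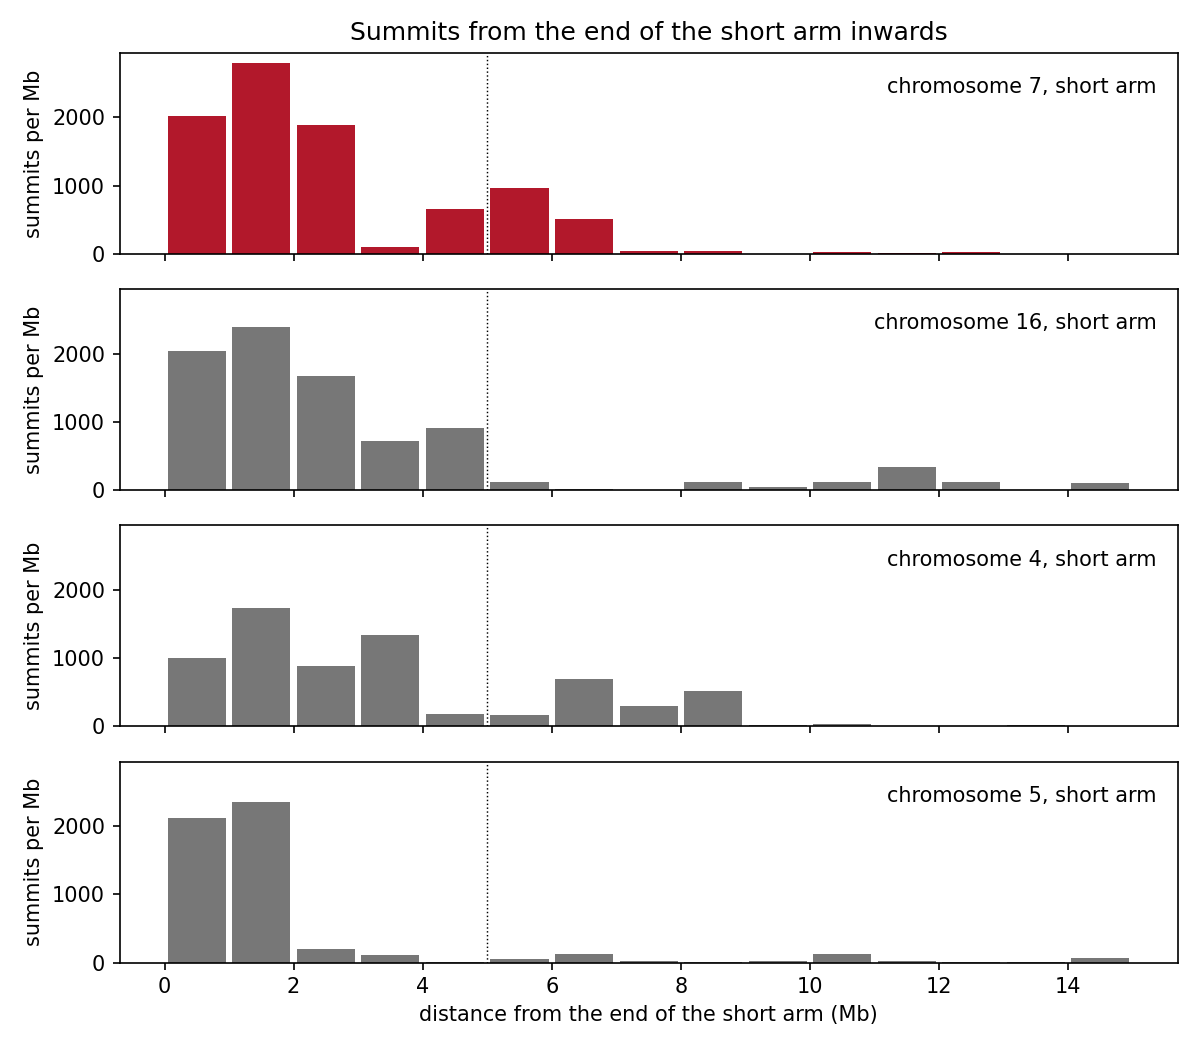
Summits in each Mb from the end of the short arm inwards for chromosome 7 (red) and chromosomes 16, 4 and 5 (grey), with a dotted line at 5 Mb. The second Mb is the highest of the first 5 in each, with 2801 summits on chromosome 7, and chromosome 7 has a hollow of 106 summits in the fourth Mb and 962 summits in the sixth.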

How the data were processed

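Libraries were made with Tn5 from harvested T47D-MTVL cells, amplified by PCR and sequenced on an Illumina HiSeq, per the labels' protocols. Bowtie 1.1.2, MACS2 and hg19 are named per the submitters' processing notes. Which version and options of MACS2 were used, and how duplicates and replicates were handled, is not stated. The narrowPeak list deposited by the authors gives, at each summit, the fold (a ratio of signal to background), a −log10 p-value, a −log10 q-value and a score. The score was not used. Start, end and summit positions were deposited in other columns of the same list. No differential test was run, since the list has no value per sample.

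The background was solved from the 177 distinct pairs of fold and p with −log10 p under 290, taking the fold as (pileup + 1) / (background + 1) and p as the Poisson tail above the pileup. The lowest solved background was 2.007559 and the highest 2.007564 reads. The solver was tested on simulated data. Pileups of the block lay within 0.02 reads of whole numbers. Printed positions are hg19, counted from 1. Windows of 100 kb and 1 Mb were counted from the chromosome start. Coverage of stretches is the summed width of member regions. Chromosome 7 beyond the block is measured without its centromere gap of 3.07 Mb. Shares carry 95% Wilson intervals and ratios of densities 95% exact Poisson intervals. Both kinds cover counting error only, and only as if the counted summits or regions were independent. Neighbouring summits share reads, and PCR copies cannot be told from separate molecules without identifiers. The intervals can therefore be too narrow. Python 3.11.15, numpy 2.4.6, pandas 2.3.3, scipy 1.17.1 and matplotlib 3.10.9 were used.

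The block, the lists and the other ends were chosen with earlier results of these data known. Named items are the 10 summits with the highest −log10 q, the 10 widest regions, the 5 with the most summits, the 5 windows of 100 kb with the most and the 5 with the fewest summits, the 5 longest stretches without a region and the 3 summits on each side of the border, with the 3 of each kind from 5 to 15 Mb. The splits at 3 and 7 Mb, the islands, the joined stretches and the classes of width and of summits per region were chosen after the values were seen. A genome of build hg19 was not used here, so no gene was placed and no sequence is given.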

Additional observations from a re-analysis of the deposited data

How the results depend on the processing

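The block's summit density over that of the next 10 Mb (9.12) came to 6.29 when regions replaced summits as the unit, 6.20 after merging regions within 100 bp, 11.3 for summits with at least 20 reads, 10.4 for the upper 50% by fold, 11.1 for −log10 q of at least 10, 10.4 when the block ended at 4 Mb, 18.7 with the border at 6 Mb and 15.04 against all of chromosome 7 beyond it. Leaving out summits with at least 50 reads gave 9.10. Stretches picked after seeing the data gave 2.02 against 5 to 7 Mb, 73.7 against 7 to 15 Mb, 13.7 for the first 3 Mb and 2.33 for 3 to 5 Mb. All of these stayed above 1, and the lowest and highest came from the stretch used as the neighbour. The ratio of covered shares (9.09) became 11.7 for regions that reach 20 reads, 9.10 after merging and 7.06 without regions at least 2 kb wide. The share of summits with at least 20 reads (37.8%) became 40.3% per region by the highest summit, 30.1% outside regions at least 2 kb wide and, by construction, 70.7% for 15 reads and 7.90% for 30. The share of regions with several summits (48.3%) became 82.9% for regions that reach 20 reads and 49.1% after merging. The share held by the 10% of windows with the most summits (24.2%) became 25.4% for 50 kb, 20.7% for 250 kb, 18.7% per region and 32.5% for summits with at least 20 reads. The share of chromosome 7's summits (33.3%) became 21.4% per region, 44.2% for summits with at least 20 reads and 34.7% outside 2 Mb around the centromere gap. Apart from shifts by construction, the cause was not tested. No paired analysis was possible because single samples have no values here, which also prevents leaving out a replicate. Since the list starts at 10 reads over a background of 2.01, sparse windows may hold open sites below that floor.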

Other observations

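The block began at 34915, the start of its first listed region, and its outermost window of 100 kb had 95 summits with a median pileup of 15 reads. Counts per 100 kb then stood at 170, 156, 192, 285 and 323 up to 600000, where 62.0% of the window from 500001 to 600000 lay in listed regions. They were 222, 162 and 105 in the next 3 windows and 304 from 900001 to 1000000. The end of the chromosome itself was thus not the densest place of the block. Between 800001 and 1000000 the count changed from 105 to 304 summits and the share at 20 reads or more from 21.9% to 53.3% between neighbouring windows. The share of reads that can be placed in the outermost windows was not measured here.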
